A study of Mus musculus with 6 samples.

Results

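The genes described here present protein fragments to T cells in mouse liver: every gene on the array whose symbol begins with H2-, and B2m, Tap1, Tap2, Tapbp, Tapbpl, Erap1, Nlrc5, Ciita, Cd74, Psmb8, Psmb9 and Psmb10. They were chosen by symbol and not by any measured value. The array named 46 such genes among 20659 genes, and 40 of them, among 14803, had a probe kept for the test, that is, bright enough to be well above background on 3 or more of the 6 arrays. Of the 46, 24 are class I heavy chain genes (19 with such a probe; H2-K2 and H2-T10 are transcribed pseudogenes in the RefSeq table), 11 belong to class II (10) and 10 to antigen processing (all 10). The remaining gene, H2-Ke6, lies in the H2 region and codes for an enzyme of steroid and fatty acid metabolism, not for an antigen-presenting molecule.

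DECB is a deproteinized extract of calf blood. Male ICR mice, an outbred stock, weighing 18 to 22 g, received DECB or normal saline (control) into the stomach, each at a daily dose of 0.08 mL per 20 g, for 35 days; the 24 mice formed groups of 12. Liver RNA was labelled with Cy3 and read on 1-colour arrays, of which 3 DECB arrays (DECB 4, 5 and 6) and 3 control arrays (control 1, 2 and 3) were analysed. The sample descriptions give 30 days for DECB and 1 day for the controls, which conflicts with the 35 days stated elsewhere. Tolerance of hypoxia in closed containers was also timed, and the labels do not place the taking of the livers before or after it. No label says that each array came from its own mouse, so the p-values rest on a spread between arrays that may be technical. ICR mice are outbred and H2 genes vary between individuals, and the H2 haplotypes of these mice are not given in the sources used here.

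Class I molecules pair a heavy chain, coded by the H2-K, H2-D, H2-Q, H2-T and H2-M genes in mice, with beta-2 microglobulin (B2m), and nearly every nucleated cell carries them. Their peptides are cut in the cytosol by the proteasome, whose immunoproteasome form carries the subunits Psmb8, Psmb9 and Psmb10, pumped into the endoplasmic reticulum by Tap1 and Tap2, trimmed there by Erap1 and loaded with the help of tapasin (Tapbp). Class II molecules (H2-A and H2-E) load peptides in endosomes, guarded by the invariant chain Cd74, and in liver they are known mainly from Kupffer cells, dendritic cells, B cells and sinusoidal endothelium. Nlrc5 is the master transcription regulator of class I genes and Ciita that of class II genes, and interferon gamma is a classical inducer of both sets.

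The file headers place the arrays in 3 scans. Arrays that share a scan identifier and scan time, at different positions on that scan, are called a slide here, a name the labels do not give. Slide 1 held DECB 6 and control 1, slide 2 held DECB 4 and controls 2 and 3, and slide 3 held DECB 5 alone. The 75th percentile of the signal was 84.8 in DECB 6 and 78.8 in control 1, against 425 to 528 in the other DECB arrays and 422 to 551 in the other controls, and 14922 to 29487 probes per array were well above background. Across genes, which are not independent replicates, Pearson's r was 0.992 between controls 2 and 3, 0.968 between DECB 6 and control 1, and 0.901 to 0.963 for the other pairs. The label of liver matched its markers: all 9 hepatocyte markers with a kept probe were well above background on all 6 arrays, and albumin (Alb) read 8.95 to 9.31 in DECB arrays and 9.06 to 9.37 in controls. These and all levels below are log2 signals relative to the array's 75th percentile, so that 0 is that percentile. A level is comparable between arrays for a gene but not between genes, and for dim genes not between slide 1 and the other arrays. H2-M10.1, well above background on no array, read -4.44 in DECB 6 and -4.15 in control 1. In the other arrays it read -6.27 and -6.90 (DECB 4 and 5) and -6.76 and -6.86 (controls 2 and 3).

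Most of these genes lie on mouse chromosome 17, and class I and class II promoters are known to share a regulatory module just upstream of their start, which includes a Y box bound by the factor NF-Y. Promoter windows from RefSeq (GRCm38.p6) were at hand for 35 of the 46 genes, Cd74 not counted, and 4 stretches are shown because they carry the genes discussed most: the strip shared by Psmb9 and Tap1, which are transcribed away from each other, and the promoters of B2m, of a class I heavy chain and of a class II beta chain. The strip is chr17:34187331-34187555 on the plus strand, the 225 bases between the Psmb9 start (34187330, minus strand) and the Tap1 start (34187556, plus strand). The B2m window is chr2:122147437-122147686 on the plus strand, that of H2-K1 is chr17:34000348-34000597 on the minus strand, and that of H2-Eb1 is chr17:34305617-34305866 on the plus strand, each the 250 bases before the start. Capitals mark matches, on either strand, to the letters of the interferon-stimulated response element core (GAAA, any 2 bases, GAAA), the gamma-activated site (TTCNNNGAA), the kB site (GGG, any 2 bases, TT, any 1 base, CC) or the Y box (ATTGG); no marked match overlaps another.
Psmb9 and Tap1 shared strip: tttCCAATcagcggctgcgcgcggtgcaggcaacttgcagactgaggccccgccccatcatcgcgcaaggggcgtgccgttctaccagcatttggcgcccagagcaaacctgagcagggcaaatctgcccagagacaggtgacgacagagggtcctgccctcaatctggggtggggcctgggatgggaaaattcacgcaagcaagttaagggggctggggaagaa
B2m: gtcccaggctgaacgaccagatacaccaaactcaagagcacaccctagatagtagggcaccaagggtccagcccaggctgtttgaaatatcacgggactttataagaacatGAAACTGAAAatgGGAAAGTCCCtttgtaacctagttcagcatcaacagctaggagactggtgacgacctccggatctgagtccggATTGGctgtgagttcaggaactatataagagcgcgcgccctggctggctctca
H2-K1: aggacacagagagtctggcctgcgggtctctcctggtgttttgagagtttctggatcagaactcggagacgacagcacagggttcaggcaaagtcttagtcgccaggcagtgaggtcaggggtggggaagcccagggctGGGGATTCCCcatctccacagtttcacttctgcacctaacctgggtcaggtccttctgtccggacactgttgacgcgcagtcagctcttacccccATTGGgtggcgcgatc
H2-Eb1: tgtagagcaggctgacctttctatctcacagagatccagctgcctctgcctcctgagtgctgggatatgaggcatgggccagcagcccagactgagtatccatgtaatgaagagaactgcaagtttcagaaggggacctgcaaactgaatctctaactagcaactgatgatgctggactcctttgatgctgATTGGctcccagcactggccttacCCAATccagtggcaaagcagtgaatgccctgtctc

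The B2m window held 1 response element core, 129 bases before the start, with a kB match at 116 and a Y box at 48. H2-K1 held a kB match 101 bases before its start and a Y box at 11. H2-Eb1 held 2 Y boxes and none of the other letters, and the Psmb9 and Tap1 strip held 1 Y box, 3 bases from the Psmb9 start, and none of the others. Over the 35 windows a Y box stood in 28 (80.0%), against 33.8% of 32851 mouse promoter windows of that length, and a kB match in 8 (22.9%), against 4.11%. The response element core stood in 2 (5.71%; B2m and H2-T23), against 2.98%, and the gamma-activated site in 4 (11.4%), against 7.02%. Many of these genes are duplicates of each other and their windows are not independent, and a match to letters is a description, not a site of binding.

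The comparison of DECB with control addressed whether these genes differed in liver after DECB. None of the 40 genes passed the test (limma, Benjamini-Hochberg adjusted p under 0.05 over all 14803 genes), against 0.466% of all genes (0.209% higher and 0.257% lower in DECB). At an unadjusted p under 0.05, 1 of the 40 passed, Psmb9, against 10% of all genes. With slide as a block 0 of 40 passed, against 6.67% of all genes, and the smallest adjusted p among the 40 was 0.0782, for H2-T3; at an unadjusted p under 0.05 that fit held 10 of them, against 28.8% of all genes. The DECB and control arrays did not overlap for 3 of the 39 genes measured on all 6 arrays, Psmb9 (higher in DECB) and Erap1 and H2-Oa (both lower in DECB), against 16.6% of all genes, 7.24% higher and 9.4% lower. None of these shares exceeds that of all genes. Differences, DECB minus control on the log2 scale, lay within 0.5 of 0 for 35 of the 40. Their 95% confidence intervals lay within 1 log2 unit of 0 for 14 of the 40 (35%), against 21.3% of all genes, so for the others a change of that size is not bounded by these arrays.

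The antigen processing group had a median difference of 0.30, with 6 of its 10 genes above 0. Class I heavy chains had a median of -0.00019 (9 of 19 above 0) and class II genes a median of -0.16 (2 of 10 above 0), against -0.03 over all 14803 genes, of which 7035 were above 0. Without DECB 6 the processing median was 0.0077 and without control 3 it was 0.14. For class II, leaving out DECB 5 or DECB 6 gave -0.31 or -0.085, and leaving out control 2 gave -0.03. Over the 5 class II genes well above background on all 6 arrays the median was -0.12. These medians are descriptions with no test.

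**Figure D1:**
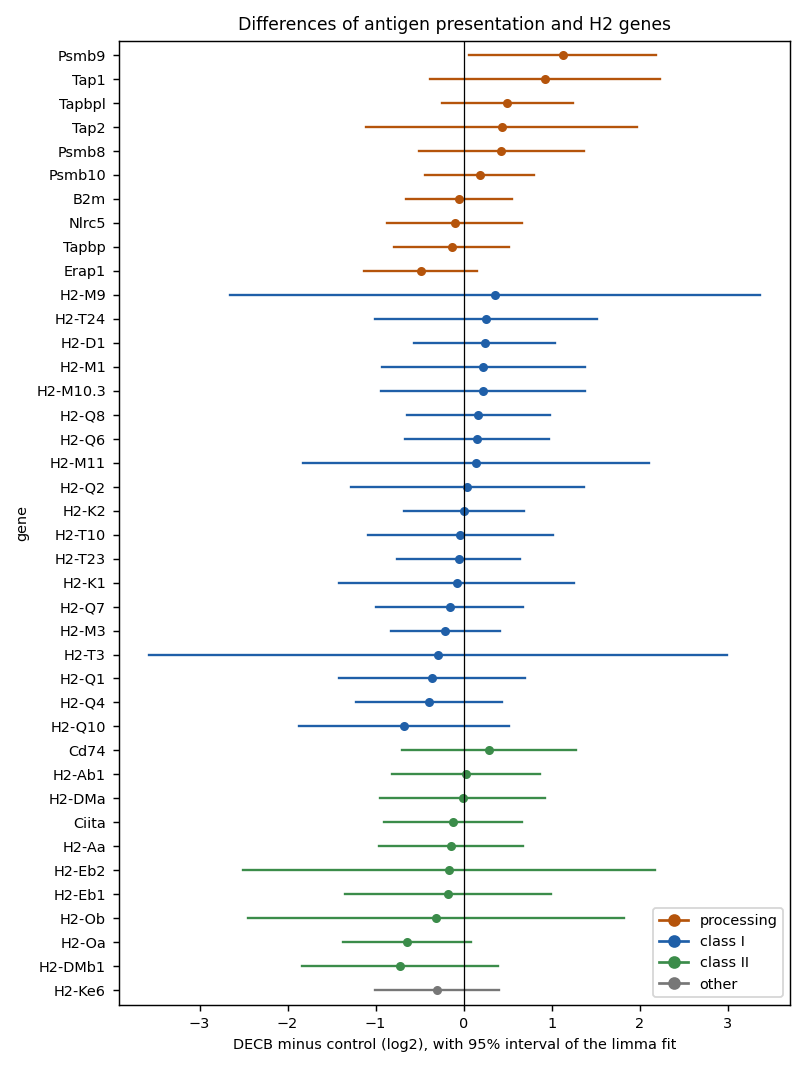
Difference of DECB from control (log2, horizontal axis) for the 40 genes with a kept probe, by group, each point with its 95% confidence interval from limma. Psmb9 at the top of the processing group is the gene whose interval, 0.06 to 2.19, does not reach 0.

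Within the immunoproteasome, Psmb9 (LMP2), a catalytic subunit, read 1.01, 1.43 and 2.55 in DECB 4, 5 and 6, and 0.92, 0.26 and 0.44 in controls 1, 2 and 3. All 3 DECB arrays lay above all 3 controls, DECB 4 by a small margin over control 1. The difference was 1.13 (SE 0.45; 95% interval 0.06 to 2.19), a 2.18-fold higher signal in DECB, and it did not pass (limma adjusted p = 0.463). Within slide 1 it was 1.63 and within slide 2 it was 0.67; fitting slide as a block gave 1.08 (limma adjusted p = 0.0829). Without DECB 6, the array with the highest value, it was 0.68, and over 14 alternative settings it ranged from 0.68 to 1.45 with adjusted p of 0.0829 to 0.9998.

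Psmb8 (LMP7), another inducible catalytic subunit, read 1.22, 1.23 and 2.21 in DECB 4, 5 and 6, and 1.61, 0.97 and 0.79 in controls 1, 2 and 3. The groups overlapped through control 1, and the difference was 0.43 (SE 0.40). The third inducible subunit, Psmb10 (MECL-1), read 2.51, 2.35 and 2.27 in DECB and 2.18, 2.37 and 2.04 in controls, a difference of 0.18 (SE 0.26). Neither Psmb8 nor Psmb10 passed (limma adjusted p = 0.877 and 0.971).

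Tap1, one chain of the peptide transporter, read -2.61, -1.97 and -0.80 in DECB 4, 5 and 6, and -1.93, -3.08 and -3.14 in controls 1, 2 and 3. DECB 6 was highest, control 1 read above DECB 4, and control 1 was the array on which this probe was not well above background. The difference was 0.92 (SE 0.56; limma adjusted p = 0.705); fitting slide as a block gave 0.77 (adjusted p = 0.0942). Tap2, the other chain, read 1.99, 2.46 and 4.02 in DECB 4, 5 and 6, and 3.43, 1.87 and 1.87 in controls 1, 2 and 3. Both slide 1 arrays, DECB 6 and control 1, were high for Tap2, and its difference was 0.43 (SE 0.65), with -0.17 as the lowest value when single arrays were left out. The starts of Psmb9 and Tap1 flank the 225 bases shown above. Both genes read higher in DECB within slide 1 (1.63 and 1.13) and within slide 2 (0.67 and 0.50). The same held for Psmb8, Psmb10, Tap2 and Tapbpl, so it was not particular to this pair. Psmb10 and Tapbpl lie on chromosomes 8 and 6.

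Tapbpl, a tapasin relative that edits class I peptides, read -0.28, -0.59 and 0.24 in DECB 4, 5 and 6, and -0.51, -0.83 and -0.79 in controls 1, 2 and 3. DECB 5 lay just below control 1 and the other DECB arrays lay above every control, for a difference of 0.50 (SE 0.32; limma adjusted p = 0.739). With slide as a block it was 0.62 (adjusted p = 0.0828). Tapasin itself, Tapbp, read 1.47 to 1.61 in DECB and 1.37 to 1.87 in controls, a difference of -0.14. B2m, the light chain of class I, stayed within a narrow range: it read 7.30, 7.08 and 7.29 in DECB and 7.21, 7.35 and 7.27 in controls, a difference of -0.05 (95% interval -0.65 to 0.55).

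Erap1, the aminopeptidase that trims class I peptides in the endoplasmic reticulum, read -0.37, -0.82 and -0.50 in DECB 4, 5 and 6, and 0.04, -0.20 and -0.07 in controls 1, 2 and 3. Every DECB array lay below every control, and the difference was -0.49 (SE 0.27; limma adjusted p = 0.667). Nlrc5, the class I regulator, read 0.90, 1.81 and 1.55 in DECB and 1.48, 1.66 and 1.42 in controls. Its difference was -0.10 (SE 0.33), and its second kept probe, the dimmer, gave -0.11.

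**Figure D2:**
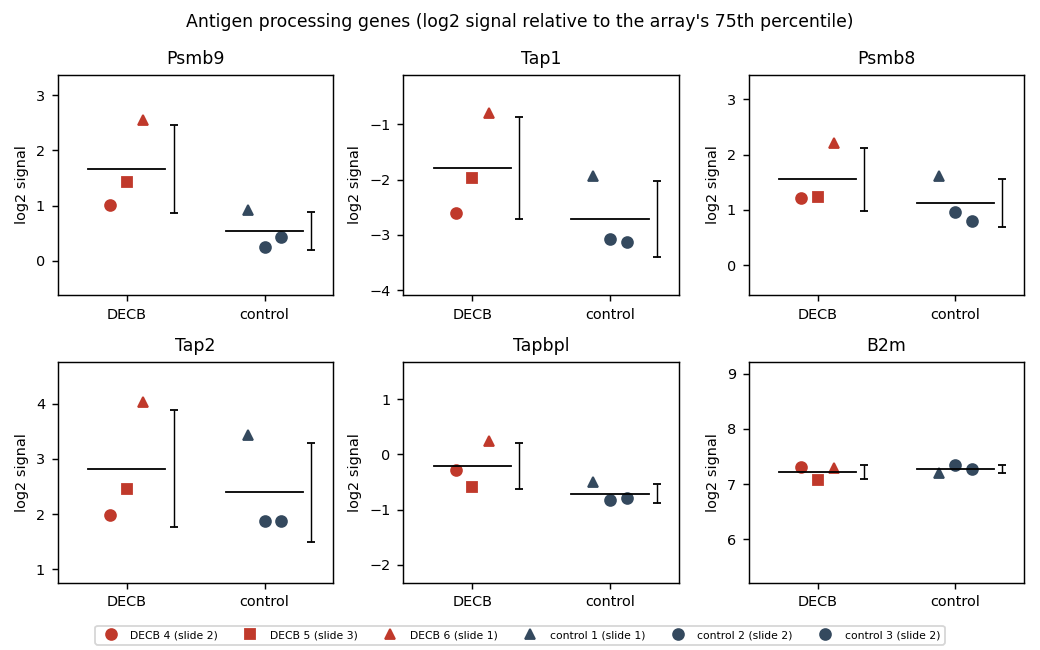
Signal of 6 antigen processing genes (log2, relative to the array's 75th percentile) on each array, DECB left of control in each panel, with marker shape for the slide, a horizontal line at the group mean and a bar of 1 SD on either side of it (n = 3 each). Psmb9 separates the groups, for Tap2 the slide 1 arrays, DECB 6 and control 1, stand highest, and the B2m groups lie level.

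Across the class I heavy chains no gene passed and none had groups that did not overlap. H2-K1, a classical heavy chain, read 6.97, 7.46 and 8.78 in DECB 4, 5 and 6, and 8.62, 7.53 and 7.31 in controls 1, 2 and 3. The high arrays were again the slide 1 pair, DECB 6 and control 1, and the difference was -0.08 (SE 0.57). H2-D1, the other classical heavy chain, read 5.57, 6.23 and 6.48 in DECB and 6.15, 5.75 and 5.66 in controls, a difference of 0.24 (SE 0.34). H2-K2, a transcribed pseudogene, differed by -0.00019, the median of the group. H2-M3, which presents formylated bacterial peptides, differed by -0.21 (SE 0.26), and H2-T23 (Qa-1), a ligand of NK cell receptors, by -0.06 (SE 0.30).

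Of the Q region genes, H2-Q10, a secreted class I molecule made by the liver, had its brightest probe marked as an outlier spot on DECB 5, so its fit rested on 5 arrays. It read 7.66 and 6.63 in DECB 4 and 6, and 7.21, 8.16 and 8.11 in controls 1, 2 and 3, a difference of -0.68 (SE 0.49; limma adjusted p = 0.798). The second H2-Q10 probe was measured on all 6 arrays and read 4.11, 3.98 and 4.49 in DECB and 4.66, 4.41 and 4.71 in controls, a difference of -0.40. Both probes were lower in DECB on average, and for the second DECB 6 lay above control 2. H2-Q4 differed by -0.40 (SE 0.35), H2-Q1 by -0.36, H2-Q7 by -0.16, H2-Q2 by 0.04, H2-Q6 by 0.15 and H2-Q8 by 0.16. The 2 kept probes of H2-Q2 disagreed: one differed by 0.04 and was highest on the slide 1 arrays (6.81 in DECB 6 and 6.49 in control 1), the other by -0.41 and was lowest there (3.76 and 4.13). The 2 probes of H2-K1 differed by -0.08 and 0.03 and those of H2-K2 by -0.00019 and -0.10. H2 genes are near-identical copies in places, the probe sequences were not used here, and signal from one gene on another's probe cannot be told apart.

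H2-T3, the thymus leukaemia antigen known from intestinal epithelium, differed strongly between slides. It read 4.45, 5.48 and 0.86 in DECB 4, 5 and 6, and 1.54, 4.98 and 5.14 in controls 1, 2 and 3. Both slide 1 arrays were low, with a gap of -3.58 from DECB 4 to DECB 6 and of -3.52 from the mean of controls 2 and 3 to control 1. The DECB difference was -0.29 with a 95% interval of -3.57 to 2.99. Within slide 1 it was -0.68 and within slide 2 it was -0.61; fitting slide as a block gave -0.64 (SE 0.15; limma adjusted p = 0.0782). H2-M11 was also low on slide 1, at 0.53 in DECB 6 and 0.30 in control 1, against 2.24 and 3.07 in the other DECB arrays and 2.48 and 2.63 in the other controls.

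H2-M9 was low there too, at -3.85 in DECB 6 and -4.17 in control 1, where it was not well above background, and its difference was 0.35 (SE 1.28). The other heavy chains differed by 0.25 (H2-T24), 0.22 (H2-M1 and, on its own probe, H2-M10.3), 0.14 (H2-M11) and -0.04 (H2-T10), all with intervals that include 0. H2-M1, H2-M10.3 and H2-M9 were each well above background on 2 arrays of each group. H2-M10.2 was well above background on 1 DECB array and 1 control array, H2-M5 on 1 DECB array, and H2-M10.1, H2-M10.4 and H2-M10.6 on none. These 5 genes were not tested. A further 16 symbols of the reference table that meet the rule were not among the named probes and are not analysed here.

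**Figure D3:**
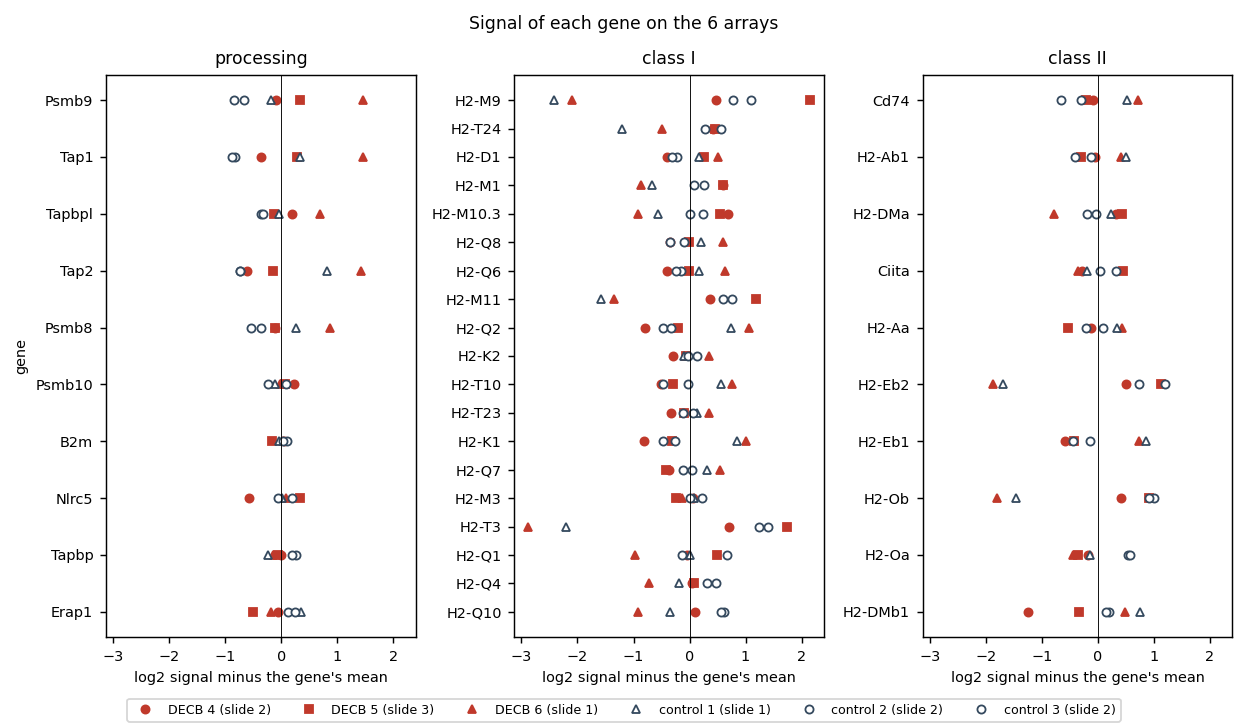
Signal of each gene on the 6 arrays (log2, as the distance from the gene's own mean), in panels for antigen processing, class I and class II, with filled marks for DECB, open marks for control and triangles for slide 1. For H2-T3, H2-M9, H2-M11, H2-Eb2 and H2-Ob both triangles stand far left of the other arrays, and for Tap2 and H2-K1 they stand right of them.

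Class II genes lay mostly below 0 and none passed. H2-Eb1, the beta chain of H2-E, read 1.79, 1.96 and 3.11 in DECB 4, 5 and 6, and 3.24, 2.23 and 1.94 in controls 1, 2 and 3. The slide 1 arrays were the high ones in both groups, and the difference was -0.18 (SE 0.50). H2-Ab1, the beta chain of H2-A, read 2.30, 2.05 and 2.76 in DECB and 2.85, 2.23 and 1.95 in controls, a difference of 0.03 (SE 0.36), and its other probe gave -0.07. Its partner H2-Aa, well above background on 2 arrays of each group, differed by -0.15. H2-Eb2 differed by -0.17, at -4.34 in DECB 6 and -4.15 in control 1, where it was not well above background.

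Cd74, the invariant chain, read 0.92, 0.80 and 1.73 in DECB 4, 5 and 6, and 1.52, 0.72 and 0.35 in controls 1, 2 and 3, a difference of 0.29 (SE 0.42). Ciita, the class II regulator, read -1.01, -0.28 and -1.07 in DECB and -0.91, -0.40 and -0.68 in controls, a difference of -0.12 (SE 0.33). The groups overlapped for both. Of the peptide exchange machinery of class II, the H2-DM chains help peptides load and the H2-O chains restrain H2-DM. H2-DMb1 read -2.30, -1.39 and -0.57 in DECB 4, 5 and 6, and -0.31, -0.86 and -0.92 in controls 1, 2 and 3. DECB 6 lay above controls 2 and 3 and the other DECB arrays lay below every control, for a difference of -0.72 (SE 0.47; limma adjusted p = 0.748), which was -0.26 within slide 1 and -1.41 within slide 2.

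H2-DMa differed by -0.01 (SE 0.40), with -1.03 within slide 1 and 0.44 within slide 2. H2-Oa read -4.25, -4.42 and -4.51 in DECB 4, 5 and 6, and -4.21, -3.54 and -3.51 in controls 1, 2 and 3. The groups did not overlap, by a narrow margin between DECB 4 and control 1, and the probe was well above background on 1 DECB array and 2 control arrays. On slide 1 its values, -4.51 and -4.21, lay near those of the undetected H2-M10.1, -4.44 and -4.15. The H2-Oa difference was -0.64 (SE 0.31, limma adjusted p = 0.579). H2-Ob differed by -0.31 (SE 0.90), at -4.49 in DECB 6 and -4.15 in control 1, and H2-DMb2 was well above background on none of the arrays. H2-Ke6 differed by -0.31 (SE 0.30).

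Differences were also taken within slides. Within slide 1 the median difference was 0.35 for antigen processing, 0.21 for class I and -0.17 for class II, and within slide 2 it was 0.21, -0.31 and -0.38. Of the 19 class I genes, 11 (57.9%) were higher in DECB within slide 1 and lower within slide 2, against 17.8% of all genes. Class II genes were lower in DECB on both slides in 6 of 10 (60%), against 36.5% of all genes. Of those, H2-Eb2, H2-Oa and H2-Ob were not well above background on every array and read -4.51 to -4.15 on slide 1. Antigen processing genes were higher in DECB on both slides in 6 of 10 (60%), against 28.5% of all genes. The class I median thus lay above 0 within slide 1 and below 0 within slide 2. DECB 5, alone on slide 3, enters none of these values, and genes of a group are not replicates of each other. With slide as a block the medians were 0.27 for antigen processing, -0.085 for class I and -0.28 for class II, against -0.05 over all genes.

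Levels on slide 1 stood apart from those on slide 2 for some of these genes in both groups. Among the 29 genes well above background on all 6 arrays and measured on each, 4 (H2-K1, H2-Q2, H2-Eb1 and Tap2) were brighter on slide 1 than on slide 2 by over 1 log2 unit in both groups, 13.8% against 11.1% of 9337 such genes. H2-T3 and H2-M11 were dimmer by over 1 in both groups, 6.9% against 5.56%. Whether slide, tissue or handling set these levels was not tested.

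**Figure D4:**
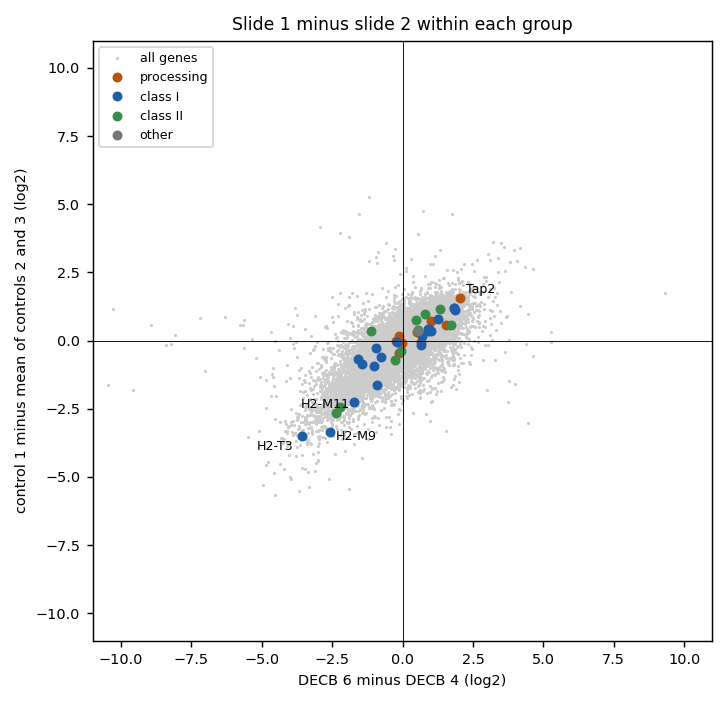
Slide 1 minus slide 2 within DECB (horizontal axis, DECB 6 minus DECB 4, log2) against the same within control (vertical axis, control 1 minus the mean of controls 2 and 3, log2), one point per gene, with these genes coloured over all genes in grey. H2-T3 lies at -3.58 and -3.52, the lower left of the coloured points.

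Other genes of the pathway were read from 9 lists of 74 genes in all, of which 68 had a kept probe. In the fit without the slide block, 2 of the 68 passed (2.94%), both higher in DECB, against 0.209% of all genes. With slide as a block 8 passed higher (11.8%) and 4 lower (5.88%), against 2.74% and 3.94% of all genes. At an unadjusted p under 0.05, 13 of the 68 (19.1%) passed without the block, against 10% of all genes. Both genes that passed belong to the peptide loading partners, the chaperones and folding enzymes of the endoplasmic reticulum, where all 8 lay above 0 with a median of 1.52. Hspa5 (BiP) read 7.95, 7.80 and 7.72 in DECB 4, 5 and 6, and 5.58, 5.33 and 5.14 in controls 1, 2 and 3, and rose by 2.47 (SE 0.27; limma adjusted p = 0.0294). Hsp90b1 (GRP94) read 7.95, 7.55 and 7.75 in DECB and 5.81, 5.65 and 5.80 in controls, and rose by 1.99 (SE 0.26; limma adjusted p = 0.0402). The groups stood well apart for both, which are general chaperones of the endoplasmic reticulum and not parts of the class I loading complex. Leaving out single arrays kept the differences at 2.37 to 2.59 and 1.89 to 2.09, with adjusted p of 0.0364 to 0.22 for Hspa5 and 0.0637 to 0.276 for Hsp90b1; Hspa5 kept its call without DECB 6 and lost it without each other array, and Hsp90b1 lost it without each.

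Calreticulin (Calr) and Pdia3 (ERp57), which sit in the class I loading complex with tapasin, read 5.93 to 6.65 and 5.64 to 6.27 in DECB, and 3.79 to 4.71 and 3.70 to 4.67 in controls. Their differences were 2.24 and 1.96, which did not pass (limma adjusted p = 0.0679 and 0.0881), but passed with slide as a block (adjusted p = 0.0209 and 0.0287), as did the glucosyltransferase Uggt1 (1.08; adjusted p = 0.0291). Beside these, Tapbp in the same complex differed by -0.14 and the heavy chains H2-K1 and H2-D1 by -0.08 and 0.24. P4hb, Canx and Ganab differed by 0.61, 0.38 and 0.10.

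The remaining 8 lists held no gene that passed without the block. All 6 genes of peptide trimming and supply lay above 0, with a median of 0.43. Of them Thop1, a cytosolic oligopeptidase that degrades peptides, differed by 1.42 (limma adjusted p = 0.139; 0.027 with slide as a block) and Lnpep (IRAP), an endosomal aminopeptidase, by 0.62. The Thop1 probe was well above background on 2 of the 3 controls, and its difference was 0.75 with normexp background correction. The list median was 0.25 with that correction, and 0.20 with only probes well above background on all 6 arrays. Lnpep was well above background on 2 arrays of each group. Constitutive proteasome partners had a median of 0.02. There Psmb7, the constitutive subunit that Psmb10 replaces, differed by 0.48, and the activator subunit Psme3 by -0.99 (limma adjusted p = 0.777; 0.0348 with slide as a block), a value that ranged from -1.57 to -0.41 when single arrays were left out.

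On the class II side, 6 of 7 genes of endosomal processing lay below 0, with a median of -0.32. The median was -0.15 with slide as a block and ranged from -0.54 to -0.08 when single arrays were left out. Cathepsin L (Ctsl), a lysosomal protease, read 5.66, 5.63 and 5.78 in DECB 4, 5 and 6, and 6.54, 6.85 and 6.89 in controls 1, 2 and 3, with no overlap. Its difference was -1.07 (SE 0.26; limma adjusted p = 0.175); fitting slide as a block gave -1.02 (adjusted p = 0.0461). Cathepsin B (Ctsb) differed by -0.52. Class I-like molecules outside the H2 region lay below 0 in 5 of 6, with a median of -0.49. Fcgrt, the neonatal Fc receptor that rescues IgG and albumin from degradation, read 1.68, 1.49 and 1.56 in DECB and 2.36, 2.62 and 2.65 in controls, a difference of -0.96 (limma adjusted p = 0.217; 0.044 with slide as a block), and Cd1d1, which presents lipids, differed by -0.64. Among the genes of class II turnover and costimulation, with a median of -0.16, Cd80 and Cd86, the ligands of CD28, differed by -0.67 and -0.37, and Cd80 passed with slide as a block (adjusted p = 0.0449). The Cd80 difference ranged from -1.03 to -0.30 when single arrays were left out.

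Regulators of class I and class II transcription had a median of 0.24, with 8 of 12 above 0. Rfxap, a subunit of the RFX complex that binds class II promoters, differed by 0.67 and Nfkb2 by 0.57, neither passing in either fit. The receptor and signalling genes of interferon gamma had a median of 0.21. Of them Socs1, an inhibitor of JAK signalling that interferon gamma induces, read -0.47, -1.61 and -1.65 in DECB 4, 5 and 6, and -4.12, -2.51 and -2.63 in controls 1, 2 and 3, a difference of 1.84 (limma adjusted p = 0.272; 0.0176 with slide as a block). Its probe was well above background on 2 of the 3 controls, and the difference was 0.78 with normexp background correction. Ptpn2, a phosphatase acting on JAK and STAT proteins, differed by 0.35.

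Interferon gamma-inducible GTPases and chemokines had a median of 0.18, with 6 of 11 above 0. Igtp (Irgm3) read 4.29, 4.84 and 6.04 in DECB 4, 5 and 6, and 3.95, 2.90 and 2.72 in controls 1, 2 and 3. The groups did not overlap, and it differed by 1.87 (SE 0.54; limma adjusted p = 0.261), with 0.0278 as the adjusted p with slide as a block. Irgm1 read 2.58, 3.11 and 3.01 in DECB and 1.83, 1.98 and 1.91 in controls, a difference of 0.99 that passed in neither fit (limma adjusted p = 0.239; 0.0676 with the block). Of the other 9 members, 4 lay above 0: Irgm2 differed by 1.11, Gbp7 by 0.67, Cxcl10 by 0.64 and Iigp1 by 0.18, with no overlap between the groups for Cxcl10. The 5 below 0 were Gbp2 (-0.07), Gbp3 (-0.10), Gbp5 (-0.37), Tgtp1 (-0.46) and Cxcl9 (-0.59). None of these 9 passed in either fit.

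Other cells of the liver carry class I and class II genes, and in bulk tissue fewer cells of a type and less RNA per cell cannot be told apart. Of 66 marker genes with a kept probe in 10 lists, 0 passed without the slide block (limma), against 0.466% of all genes, and 9 (13.6%) had an unadjusted p under 0.05, against 10%. With the block, 2 passed higher in DECB (3.03%; all genes 2.74%) and 4 lower (6.06%; all genes 3.94%). The 6 were S100a8 and S100a9 (higher) and Coro1a, Gzma, Ccl5 and Stab2 (lower). Of the leukocyte markers, 5 of 6 had a kept probe, with a median difference of -0.12. The summed linear signal of those 5, in multiples of the array's 75th percentile, was 2.82 to 3.23 in DECB and 3.95 to 4.30 in controls. Such a sum weights the brightest probes most and is comparable between arrays for a list, not between lists. Coro1a, an actin-binding protein of leukocytes, differed by -0.85 and made up 24.6% to 54.2% of it, and without Coro1a the sums overlapped, at 1.64 to 2.12 in DECB and 1.96 to 2.51 in controls. Of the Kupffer cell and macrophage list, 10 of 12 were kept, with a median of -0.23 (0.06 with slide as a block). Its sums were 27.4 to 32.3 in DECB and 26.8 to 39.1 in controls. In this list 8 genes lay below 0, among them Clec4f (-0.40) and Vsig4 (-0.20), which mark Kupffer cells. The 2 above 0 were Cd5l (0.51) and Marco (0.32).

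Sinusoidal endothelial markers, 9 of 9 kept, had a median of -0.30 and sums of 17.5 to 34.3 in DECB and 23.9 to 42.2 in controls. B cell markers, 7 of 8 kept, had a median of 0.14 and sums of 2.60 to 7.67 in DECB and 2.95 to 6.82 in controls, with Ms4a1 not kept and 51.8% to 88.4% of the sum from Cd22. Dendritic cell markers, 5 of 8 kept with Itgax, Xcr1 and Cd209a not kept, had a median of 0.12. Their sums were 8.44 to 126 in DECB and 15 to 166 in controls, lowest on the slide 1 arrays, but 87.2% to 99.2% of each came from the Siglech probe. Siglech, a marker of plasmacytoid dendritic cells, read 6.68, 6.97 and 2.88 in DECB 4, 5 and 6, and 3.82, 7.36 and 7.07 in controls 1, 2 and 3. The other 4 probes summed to 1.08 to 1.37 in DECB and 0.93 to 1.33 in controls.

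The T and NK cell list, 7 of 11 kept with Cd3d, Cd3g, Klrb1c and Ncr1 not kept, had a median of -0.75, which turned to 0.14 without DECB 6. That setting kept control 1, the other slide 1 array, and leaving out both gave -0.82. Leaving out any other single array gave -1.15 to -0.22. The block fit gave -0.80, slide 1 alone gave -0.62 and slide 2 alone, where Cd3e is missing, gave -0.68. The sums of the list were 8.84 to 32.8 in DECB and 17.3 to 53.7 in controls, with 32.2% to 82.6% from Cd4. Without Cd4 they were 4.95 to 7.76 in DECB and 8.03 to 11.7 in controls. Cd3e was not measured on DECB 4, so the sums of that array lack this gene and are too low by its part. Gzma, a granzyme of cytotoxic cells, read -0.80, -0.49 and -0.12 in DECB 4, 5 and 6, and 2.33, 1.11 and 0.60 in controls 1, 2 and 3, a difference of -1.82 (limma adjusted p = 0.206; 0.0323 with slide as a block), and Ccl5 differed by -1.76 (0.0854; 0.0392 with the block). The other kept members differed by -1.13 (Gzmb), -0.75 (Cd4), -0.22 (Cd3e, not measured on DECB 4), 0.07 (Nkg7) and 0.88 (Cd8a). The 4 neutrophil markers kept of 8 had a median of 1.08, with Ly6g and Retnlg not kept. Their sums were 3.93 to 8.88 in DECB and 1.64 to 7.19 in controls, with 29.1% to 87.6% from Elane. Without Elane the sums did not overlap, at 2.02 to 2.79 in DECB and 0.771 to 1.00 in controls. S100a8 and S100a9 each differed by 1.57 with no overlap (limma adjusted p = 0.101 and 0.167; 0.0309 and 0.0215 with the block), Camp by 0.59 and Elane by 0.33. Cholangiocyte markers, 4 of 7 kept, had a median of 0.72 and those of stellate cells and fibroblasts, 6 of 7 kept, a median of -0.45. Hepatocyte markers, 9 of 10 kept, had a median of -0.28, also with slide as a block, and 8 of the 9 lay below 0. The part of these cells in the levels of class I, class II and processing genes was not tested.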

How the data were processed

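Liver RNA of 3 DECB and 3 control samples was measured on Agilent 1-colour arrays, grouped by sample title. Per the file headers, the intensity values used here, the processed Cy3 signals, were background-subtracted and spatially detrended in Agilent Feature Extraction 11.0.1.1, with no normalization between arrays, and the raw median signals of spot and local background are intensity values as deposited. The submitters' processing notes give the same version. The authors' deposited value table is on a log2 scale, and no source used here says how it was made. Centred on each probe's mean, its columns correlated with their own arrays at r of -0.034 to 0.044, so it entered no comparison.

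From the processed signals, log2 values minus the 75th percentile of the 43020 non-control spots of each array were computed. Outlier spots (164 to 322 per array) were dropped, and no spot was saturated. Spots of a probe were averaged, and a probe was kept where 3 or more of the 6 arrays read well above background (25416 of 39429). Accessions were matched without versions to RefSeq genes (GRCm38.p6): 27234 of 28684 probes with a RefSeq accession received a symbol and 12195 probes stayed unnamed. The array design names mm9, per the file headers, so no probe coordinates are given. The brightest probe stood for a gene.

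DECB was compared with control with limma 3.58.1 (R 4.3.3), lmFit and eBayes, two-sided, adjusted by Benjamini-Hochberg over 14803 genes. The fit without the slide block was also run on simulated data with no slide effect, so that run does not cover differences between slides. With 3 arrays a group an exact permutation test cannot go below p = 0.1, and the number of arrays limits the precision. Lists were described by counts and medians, with no test. All 46 genes were described, with those pathway genes that passed in either fit or had the 2 smallest p of their list; the other interferon-inducible genes, P4hb, Canx and Ganab values and the marker genes were named beside their lists after their values were seen. The genes, their groups and the lists were chosen with earlier results of these data known. Alternatives were normexp background correction (offset 50), quantile normalization, filters on dim probes, slide as a block, single arrays or slide 1 left out, controls 2 and 3 averaged, and the mean of a gene's probes.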

Additional observations from a re-analysis of the deposited data

How the results depend on the processing

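None of the 40 genes passed in any of the 14 alternatives that gave a test, of which the strict filter on dim probes tested 30 genes. Few of all genes passed without the slide block either, 0.466% in the reported fit, so 0 of 40 there shows no stability. The number that lay on the other side of 0 from the reported difference was 0 with no filter or a strict one. A filter changes which probes enter and not their signals, so that 0 shows no stability. Over the other alternatives the number ranged from 2 (mean of a gene's probes) to 12 (without DECB 6). Counts over all genes changed with the setting. The 31 genes higher in DECB became 16 with quantile normalization, 405 with slide as a block and 0 with no filter on dim probes. They became 0 with controls 2 and 3 averaged, and 0 to 18 when single arrays were left out. The 38 genes lower in DECB became 23 with quantile normalization, 583 with slide as a block, 0 with no filter, 2 with controls 2 and 3 averaged, and 0 to 35 when single arrays were left out. The slide block leaves 2 residual degrees of freedom, and DECB 5, alone on its slide, adds nothing to its contrast. The class I median of -0.00019 became 0.12 with quantile normalization, -0.085 with slide as a block, -0.096 without slide 1, 0.21 within slide 1, -0.31 within slide 2, and -0.13 to 0.10 when single arrays were left out, so its sign is not settled. The class II median stayed below 0 throughout and was -0.07 with normexp background correction. It reached -0.38 within slide 2 and ranged from -0.31 to -0.03 when single arrays were left out. The antigen processing median stayed above 0 and fell to 0.0077 without DECB 6, with 0.39 as the highest value when single arrays were left out. The causes of these shifts were not tested. No paired analysis was possible because the sample titles number the controls 1 to 3 and the DECB samples 4 to 6, so the groups share no replicate number; the slide block is a batch term and pairs no samples. The value table was not run as an alternative, since it did not follow the scanner values. On slide 1 the 75th percentile was 4.04 (DECB 6) and 3.75 (control 1) times the local background, against 25.0 to 30.6 on the other arrays, which limits dim genes there.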
